A study of Homo sapiens with 10 samples.

Results

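The steroid-metabolizing enzymes HSD11B2, AKR1C1, AKR1C2, AKR1C3, HSD17B1, HSD17B4, STS and SRD5A1 were followed across all 10 arrays of an Affymetrix U133A 2.0 experiment in T47D human breast cancer cells. The members were named by gene symbol, and every probe set paired with one of the symbols was taken, which gave 16 of 22215 probe sets and 8 of 11963 genes. The lines were clones derived from T47D-Y, a T47D variant with no progesterone receptor (PR), and each line was 1 clone. The iKR line carried an inducible vector for PR-B with the K388R change, which removes the main SUMO attachment site, the iWT line carried the same vector with wild-type PR-B, and the iEV line carried the empty vector. All cells were serum starved and had the dimerizer AP21967 (which drives the vector) or its ethanol vehicle for 2 days, and then received the synthetic progestin R5020 or ethanol for 6 h. The iKR and iWT lines were measured in all 4 combinations, whereas iEV was measured with and without AP21967 and was not given R5020. Each of the 10 conditions was 1 array.

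Steroid-converting enzymes set how much active hormone reaches the receptors inside a cell. Some make active hormone, such as STS, which removes sulfate from estrone sulfate and dehydroepiandrosterone sulfate, HSD17B1, which reduces estrone to estradiol, SRD5A1, which reduces testosterone to dihydrotestosterone, and AKR1C3, which makes testosterone from androstenedione and also forms prostaglandin F. Others lower it, such as HSD11B2, which oxidizes cortisol to inactive cortisone, AKR1C1, which inactivates progesterone, AKR1C2, which inactivates dihydrotestosterone, and HSD17B4, a peroxisomal enzyme that can oxidize estradiol and takes part in fatty acid breakdown. The AKR1C genes are neighbours of nearly the same sequence on chromosome 10.

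Values are log2 signals from Robust Multi-array Average (RMA), so a difference of 1 is a 2.0-fold difference. RMA gives the arrays the same distribution of probe signals before these are summarized. The summarized values still differed slightly in distribution, with a 10th percentile of 5.47 to 5.55. The median signal of an array was 8.11 to 8.14 (log2). The luminal keratins KRT8, KRT18 and KRT19 were at 14.3 (log2) or more on every array, while the basal keratins KRT14 and KRT5 were at 5.71 to 6.02 and 7.79 to 8.16. The leukocyte markers PTPRC, CD14 and CD3D were at 6.02 to 7.18 and the endothelial PECAM1 and VWF at 6.79 to 7.72, whereas the mesenchymal COL1A2, DCN, VIM and COL1A1 were at 7.31 to 9.77, in part above the array median. Probes differ in how strongly they bind, so levels of different probe sets are not on a common scale, and the position of a probe set on an array is only a rough guide to dimness. PGR itself had 10.6 or more on all 8 receptor-line arrays, with and without AP21967, against 6.17 and 6.25 in iEV. Line differences were tested with limma over all probe sets, with Benjamini-Hochberg adjustment, in a fit to the 10 arrays with terms for the line, AP21967 and R5020. The arrays of a clone under different treatments stood in for replicates, so the p values cover the spread between arrays of these clones. Clone and vector cannot be told apart.

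The strongest line difference among the enzymes was the low AKR1C3 signal in both receptor lines. In iKR, AKR1C3 (209160_at; chr10:5048781-5107686 in GRCh38.p14) had a log2 signal of 5.65 with AP21967 and R5020, 5.21 with AP21967, 5.08 with R5020 and 5.29 with neither. In iWT the values were 6.09 with AP21967 and R5020, 5.21 with AP21967, 5.56 with R5020 and 5.45 with neither, against 11.35 with AP21967 and 11.40 without it in iEV. The 8 receptor-line arrays and the 2 iEV arrays were apart by more than 5 log2 units, and the gap was present whether or not the inducer had been added. The fitted difference from iEV was -6.22 ± 0.10 (log2, SE) in iKR and -5.95 ± 0.10 in iWT (adjusted p = 8.14e-10 and 1.59e-09, limma). On the receptor-line arrays 6.19% to 16.1% of all probe sets were dimmer than AKR1C3, against 91.6% and 92.2% in iEV, so the receptor-line values lie at the dim end of the arrays and no fold is given. The difference between iKR and iWT, -0.27 ± 0.08, was not called (adjusted p = 0.0765). In bulk RNA, fewer cells that carry a transcript and less of it per cell cannot be told apart.

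Probe sets of AKR1C2 and AKR1C1 were also lower in both receptor lines, by less. The AKR1C2 probe set 211653_x_at (gene at chr10:4987775-5018000, minus strand) had 6.89 with AP21967 and R5020, 6.66 with AP21967, 6.91 with R5020 and 6.76 with neither in iKR. The iWT values were 6.96, 6.74, 6.87 and 6.75 under the same 4 treatments, against 8.02 with AP21967 and 7.95 without it in iEV. All 8 receptor-line values lay below both iEV values, and the fitted differences were -1.27 ± 0.07 in iKR and -1.24 ± 0.07 in iWT (adjusted p = 1.17e-06 and 2.04e-06, limma). The second AKR1C2 probe set, 209699_x_at, ranged over 8.78 to 8.92 in iKR and 8.79 to 8.95 in iWT, against 9.18 and 9.22 in iEV, with differences of -0.35 and -0.33 (adjusted p = 0.00847 and 0.0118). This smaller call was lost without the iEV array with AP21967 or the one without it in both lines, and for iWT also without either iWT vehicle array (adjusted p up to 0.115 in iKR and 0.139 in iWT).

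Of the 3 AKR1C1 probe sets (gene at chr10:4963415-4983283), 2 were lower in the receptor lines and 1 was not. The brightest, 204151_x_at, had 8.88 with AP21967 and R5020, 8.82 with AP21967, 8.95 with R5020 and 8.93 with neither in iKR. In iWT the same treatments gave 8.99, 8.81, 8.80 and 8.93, against 9.27 with AP21967 and 9.56 without it in iEV. Every receptor-line array was below both iEV arrays, by -0.54 ± 0.08 in iKR and -0.55 ± 0.08 in iWT in the fit (adjusted p = 0.000956 and 0.00089, limma). The probe set 216594_x_at spanned 7.97 to 8.17 in iKR and 8.04 to 8.29 in iWT, against 8.67 and 9.05 in iEV (fitted -0.85 and -0.71, adjusted p = 3.46e-05 and 0.000142). The third, 217626_at, overlapped between the lines at 6.91 to 7.01 in iKR, 6.89 to 7.21 in iWT and 6.83 to 6.95 in iEV, and was not called (0.08 and 0.14, adjusted p = 0.624 and 0.382).

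None of the 6 AKR1C probe sets is paired with more than 1 gene in the platform annotation. However, 4 of the 6, namely both AKR1C2 sets and AKR1C1 204151_x_at and 216594_x_at, carry the suffix _x_at, which the manufacturer gives to probe sets whose probes may bind other transcripts. These 4 are the sets that were lower by less than AKR1C3, and the share of their signal that comes from another AKR1C transcript was not tested, so AKR1C1 and AKR1C2 levels are uncertain as gene-specific values.

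**Figure D1:**
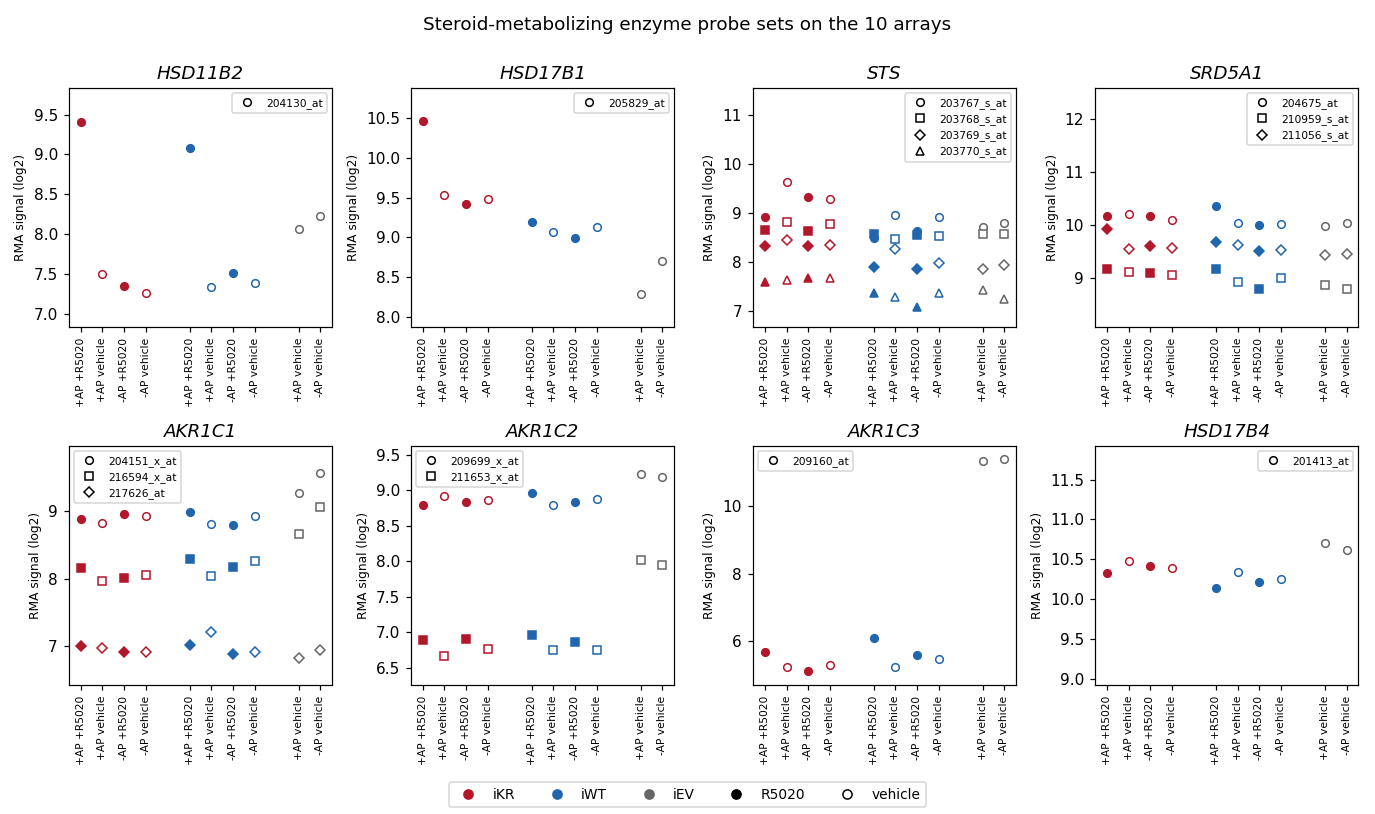
RMA log2 signal of each enzyme probe set on each of the 10 arrays, 1 point per array, with iKR in red, iWT in blue and iEV in grey, and filled points for R5020. AKR1C3 lies between 5.08 and 6.09 in the receptor lines and at 11.35 and 11.40 in iEV, and HSD11B2 is highest on the 2 arrays with AP21967 and R5020 (9.40 in iKR and 9.08 in iWT).

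The similarity of the AKR1C genes is also seen in the sequence before their start sites. It is shown because probe sets paired with AKR1C1, AKR1C2 and AKR1C3 were lower in the same lines. Those of AKR1C1 and AKR1C2 may bind other transcripts, and the AKR1C1 set without the suffix _x_at was not lower. RefSeq (GRCh38.p14) windows of 250 bases before to 50 after the start were aligned in pairs, and AKR1C1 and AKR1C2 were identical at 98.6% of aligned bases, whereas the 2 AKR1C3 start sites were 77.7% to 80.6% identical to these and 78.5% to each other. The capitals mark the longest stretch found in all 4 windows, 12 bases that begin 73 to 86 bases before the start. The 250 bases before each start read, 5′ to 3′:
AKR1C1 start upstream window, chr10:4963165-4963414, plus strand: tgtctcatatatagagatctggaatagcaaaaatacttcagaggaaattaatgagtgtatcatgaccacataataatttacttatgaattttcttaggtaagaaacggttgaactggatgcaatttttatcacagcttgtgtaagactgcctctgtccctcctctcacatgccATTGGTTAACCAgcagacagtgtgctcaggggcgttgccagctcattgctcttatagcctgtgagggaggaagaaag
AKR1C2 start upstream window, chr10:5003858-5004107, minus strand: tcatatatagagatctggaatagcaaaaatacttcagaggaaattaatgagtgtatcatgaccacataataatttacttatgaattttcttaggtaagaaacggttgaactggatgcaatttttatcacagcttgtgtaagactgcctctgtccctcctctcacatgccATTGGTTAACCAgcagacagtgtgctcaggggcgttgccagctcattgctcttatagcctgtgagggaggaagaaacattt
AKR1C3 start upstream window, chr10:5048531-5048780, plus strand: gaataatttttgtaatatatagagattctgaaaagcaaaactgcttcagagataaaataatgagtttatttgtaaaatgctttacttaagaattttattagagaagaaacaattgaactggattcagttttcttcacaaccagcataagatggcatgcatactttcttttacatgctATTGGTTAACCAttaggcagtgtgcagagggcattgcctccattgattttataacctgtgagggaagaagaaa
AKR1C3 start upstream window, chr10:5094164-5094413, plus strand: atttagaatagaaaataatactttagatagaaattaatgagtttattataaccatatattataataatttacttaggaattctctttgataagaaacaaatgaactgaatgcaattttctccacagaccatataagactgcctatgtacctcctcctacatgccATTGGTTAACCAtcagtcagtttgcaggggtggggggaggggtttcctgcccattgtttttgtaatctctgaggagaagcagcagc
The stretch opens with ATTGG, the reverse complement of CCAAT, a pair present on either strand in 34.6% of 35116 promoter windows of the same 300 bases. The whole stretch was found in 5 of them (0.0142%), the 4 AKR1C windows and 1 of PPFIA2, and it was picked after the sequences were seen.

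A search of the 300-base windows on both strands found neither TGACNNNGC, the core of the antioxidant response element, nor TGTTCT, an arm of the hormone response element, in any AKR1C window, nor in those of HSD17B4 and SRD5A1. Of all windows 13.3% hold TGACNNNGC, 14.8% hold TGTTCT and 0.00285% hold the palindromic hormone response element. The 5 STS windows hold 1 TGACNNNGC and 2 TGTTCT. HSD11B2 and HSD17B1 are not among the 11 windows that matched 6 members.

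The nearest measured genes on either side of the AKR1C cluster were not lower as a block. Before AKR1C1, which starts at chr10:4963415, the nearest was KLF6, which ends at 3785209, and the furthest WDR37, which ends at 1132372. After AKR1C4, which ends at 5218949, they start from 5393101 (TUBAL3) to 5638867 (ASB13). Closer genes without a probe set were not measured. The 5 nearest measured genes on each side gave 14 probe sets, with fitted differences from iEV of -0.18 to 0.74 in iKR and -0.30 to 0.66 in iWT. In iKR, 4 probe sets of KLF6, a zinc finger transcription factor, and NET1 were called higher and 0 lower. In iWT 5 were called higher, of KLF6, NET1 and CALML5, and 2 lower, of PFKP and PITRM1 (-0.26 and -0.30). AKR1C4, the liver member of the cluster, differed by -0.21 in iKR and -0.17 in iWT and was not called (adjusted p = 0.069 and 0.164), and its signal was dim on every array (4.65 to 4.92).

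**Figure D2:**
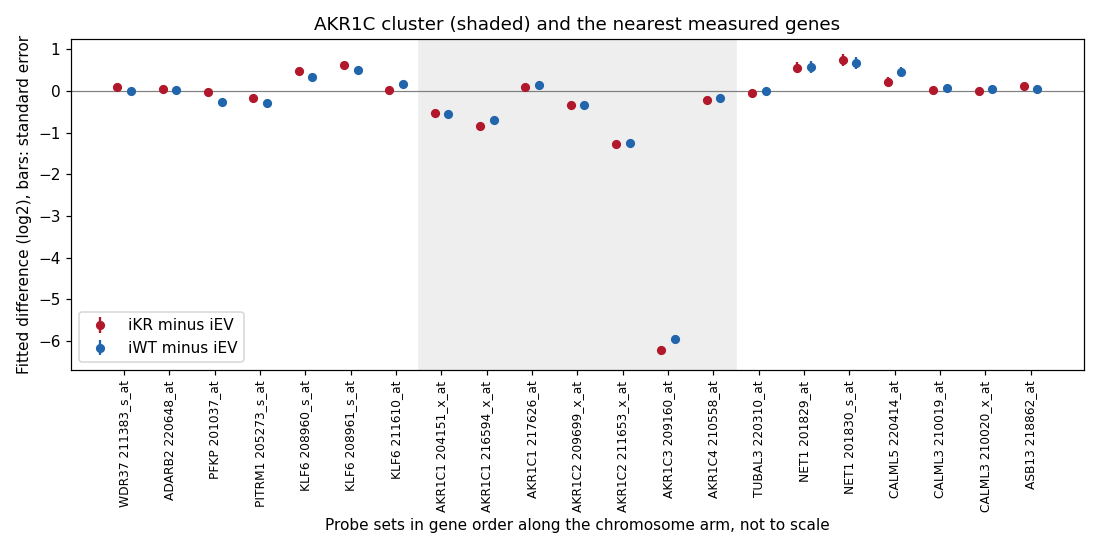
Fitted log2 difference from iEV (points, with standard error bars) for AKR1C probe sets (shaded) and the nearest measured genes, in their order along the chromosome, iKR in red and iWT in blue. AKR1C3 is at -6.22 and -5.95, and the flanking probe sets lie between -0.30 and 0.74.

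Over all 16 enzyme probe sets, 7 were lower in iKR than in iEV (of HSD11B2, AKR1C1, AKR1C2, AKR1C3 and HSD17B4) and 5 were higher (of HSD17B1, STS and SRD5A1), where 7.82% and 8.47% of all probe sets were called lower and higher. In iWT the same 7 were lower and 0 were higher, against 7.73% lower and 7.14% higher over the array (at an unadjusted p under 0.05, 13 of the 16 and 6074 of all 22215 differed in iKR, and 8 and 5764 in iWT). The median difference of the 16 was 0.10 in iKR and -0.02 in iWT, beside 0.00 and 0.01 for all probe sets. By ranges, 6 of the 16 had all 8 receptor-line arrays below both iEV arrays, where 11.6% of all probe sets did, and 2 had them above (HSD17B1 and SRD5A1 211056_s_at), where 11.0% did. Past 2.0 fold in matched pairs of arrays, AKR1C3 and AKR1C2 211653_x_at were lower in both lines with and without AP21967, a list that HSD17B1 joined in iKR with AP21967 (1.24). HSD17B1 also passed it between iKR and iWT with AP21967 and R5020 (1.27), where the share of all probe sets was not counted. Differences from iEV past 2.0 fold were seen for 1.29% of all probe sets in iKR with AP21967 and 1.15% without. In iWT they were seen for 0.927% and 0.909%.

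**Figure D3:**
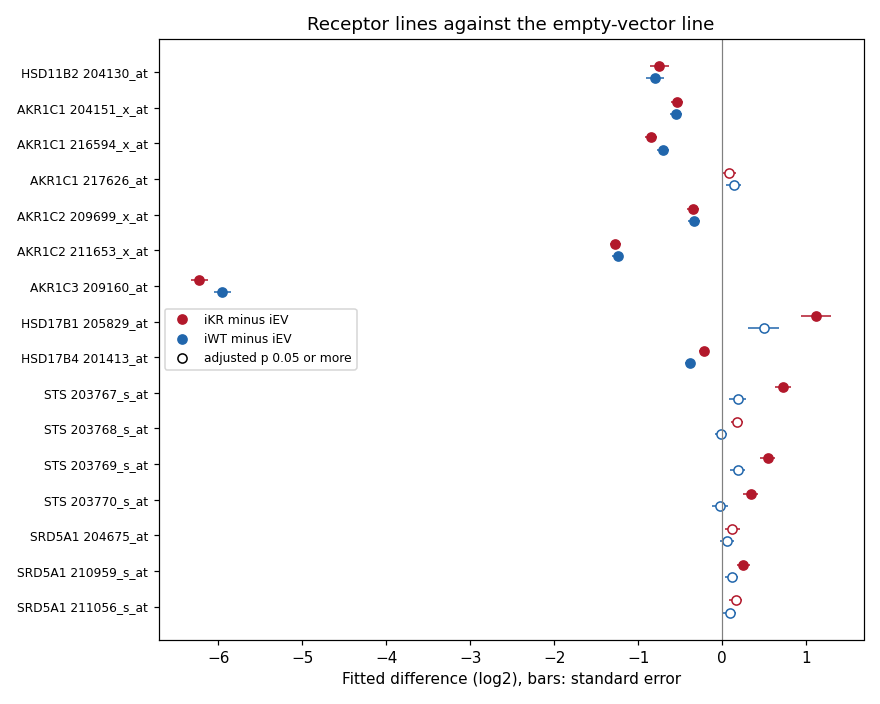
Fitted difference from iEV (log2, with standard error bars) of the 16 enzyme probe sets, iKR in red above iWT in blue, with open points where the adjusted p was 0.05 or more. HSD11B2 and 5 of the 6 AKR1C sets are lower in both lines (AKR1C1 217626_at is not), and HSD17B1 and 3 STS sets are higher in iKR.

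HSD17B1 was higher in iKR than in both other lines. HSD17B1 (205829_at; chr17:42552923-42555214) had 10.46 with AP21967 and R5020, 9.53 with AP21967, 9.42 with R5020 and 9.48 with neither in iKR. It had 9.19 with AP21967 and R5020, 9.07 with AP21967, 8.99 with R5020 and 9.13 with neither in iWT, against 8.29 with AP21967 and 8.70 without it in iEV. The lines did not overlap, in the order iKR, iWT, iEV. The fitted difference from iEV was 1.12 ± 0.18 in iKR (adjusted p = 0.00204, limma) and 0.49 ± 0.18 in iWT, not called (adjusted p = 0.107). The iWT difference was called in the 6 arrays without R5020 (0.60, adjusted p = 0.00771) and without either array with AP21967 and R5020 (0.60, adjusted p = 0.00205). The 2 iEV arrays were themselves 0.41 apart, and the iKR call was lost without the iEV array with AP21967 (adjusted p = 0.0643). Between iKR and iWT the difference was 0.63 ± 0.14 (adjusted p = 0.0244). It was 0.40 and not called in the 6 arrays without R5020, and it was also lost without the iWT vehicle, the iWT R5020 or the iKR R5020 array of cells not given AP21967, or the iKR array with AP21967 and vehicle (adjusted p up to 0.113).

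STS, the steroid sulfatase, was higher in iKR as well. Its brightest probe set, 203767_s_at (gene at chrX:7147290-7354641), had 8.91 with AP21967 and R5020, 9.64 with AP21967, 9.33 with R5020 and 9.29 with neither in iKR. In iWT it had 8.49 with AP21967 and R5020, 8.96 with AP21967, 8.65 with R5020 and 8.93 with neither, against 8.71 with AP21967 and 8.79 without it in iEV. Each iKR array lay above both iEV arrays, while the iWT arrays overlapped them. The fitted difference was 0.72 ± 0.10 for iKR minus iEV and 0.54 ± 0.07 for iKR minus iWT (adjusted p = 0.00066 and 0.00227, limma), and 0.18 ± 0.10 for iWT minus iEV (adjusted p = 0.277).

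The STS probe sets 203769_s_at and 203770_s_at moved the same way, by 0.54 and 0.34 for iKR minus iEV (adjusted p = 0.00211 and 0.0304) and by 0.36 each for iKR minus iWT (adjusted p = 0.0119 and 0.0131). The fourth, 203768_s_at, at 8.63 to 8.83 in iKR, 8.47 to 8.58 in iWT and 8.57 to 8.58 in iEV, was called in neither (0.18 and 0.19, adjusted p = 0.155 and 0.0873). Against iEV the 203769_s_at call was lost without the iEV array with AP21967 (adjusted p = 0.0601), and the 203770_s_at call without any 1 of the 6 vehicle arrays (adjusted p up to 0.328). Against iWT both were lost in the 6 arrays without R5020 and without the iWT or iKR R5020 array not given AP21967. In addition 203769_s_at was lost without the iWT array with neither agent, and 203770_s_at without the iWT array with AP21967 and vehicle or the iKR array with neither agent (adjusted p up to 0.208 and 0.0956).

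Between the receptor lines, 4 enzyme probe sets, of HSD17B1 and STS, were called higher in iKR than in iWT and 0 lower, where 3.51% of all probe sets were higher and 2.63% lower. All 4 iKR arrays were above all 4 iWT arrays for 4 of the 16 (HSD17B1 and STS 203768_s_at, 203769_s_at and 203770_s_at), where 4.73% of all probe sets were.

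HSD17B4 and SRD5A1 differed by little. HSD17B4 (201413_at; chr5:119452497-119542332) had 10.32 with AP21967 and R5020, 10.48 with AP21967, 10.42 with R5020 and 10.38 with neither in iKR. In iWT it had 10.14 with AP21967 and R5020, 10.34 with AP21967, 10.21 with R5020 and 10.25 with neither, against 10.71 with AP21967 and 10.61 without it in iEV. All receptor-line arrays were below both iEV arrays, by -0.21 ± 0.06 in iKR and -0.38 ± 0.06 in iWT (adjusted p = 0.0341 and 0.0018, limma). The iKR call was lost in 8 of 16 alternatives, each of which left out 1 array (any array but the 2 with AP21967 and R5020; adjusted p up to 0.199).

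The brightest SRD5A1 probe set, 204675_at (gene at chr5:6633440-6674386), had 10.19 with AP21967 and R5020, 10.22 with AP21967, 10.18 with R5020 and 10.11 with neither in iKR. It had 10.36 with AP21967 and R5020, 10.05 with AP21967, 10.01 with R5020 and 10.02 with neither in iWT, against 9.98 with AP21967 and 10.04 without it in iEV. The iWT values overlapped those of iEV and neither line was called (0.12 and 0.06, adjusted p = 0.426 and 0.762). Of the other 2 sets, 210959_s_at was 0.25 ± 0.08 higher in iKR (adjusted p = 0.0488), a call lost in 10 of 15 alternatives, namely cyclic loess, a mean-variance trend and leaving out any 1 array except the 2 with AP21967 and R5020 (adjusted p up to 0.31). The set 211056_s_at was not called (0.16 and 0.09, adjusted p = 0.193 and 0.534).

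HSD11B2 was lower in unstimulated receptor lines than in iEV and was the enzyme that R5020 raised most. HSD11B2 (204130_at; chr16:67429801-67437553) had 9.40 with AP21967 and R5020, 7.50 with AP21967, 7.35 with R5020 and 7.26 with neither in iKR. It had 9.08 with AP21967 and R5020, 7.33 with AP21967, 7.51 with R5020 and 7.39 with neither in iWT, against 8.07 with AP21967 and 8.22 without it in iEV. The 2 arrays with inducer and progestin were above both iEV arrays, and the other 6 receptor-line arrays were below them. With R5020 accounted for, the line difference was -0.75 ± 0.11 in iKR and -0.80 ± 0.11 in iWT (adjusted p = 0.00125 and 0.000879, limma), and iKR minus iWT was 0.05 ± 0.08 (adjusted p = 0.807).

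R5020 responses were tested in a fit to the 8 receptor-line arrays, in which iKR and iWT stood in for replicates of a shared response, so that it does not compare them. With AP21967, HSD11B2 rose by 1.82 ± 0.08 (log2), or 3.54 fold (adjusted p = 6.36e-06, limma). The single-array differences were 1.90 in iKR and 1.74 in iWT. Without AP21967 they were 0.08 in iKR and 0.12 in iWT, and the response was larger with the inducer by 1.72 ± 0.11 (adjusted p = 0.00022). Median centring and cyclic loess gave 1.80 each, and the call was kept. Leaving out an array without AP21967 does not change the value. Leaving out an array with AP21967 only returns the single-array difference of the other line. FKBP5, a progestin-induced chaperone used as a check, rose by 2.99 with AP21967 and by 0.84 without it (adjusted p = 0.0403, limma), the 1 probe set of the array called there. It came from a check list of 8 genes, of which 7 were measured by 11 probe sets. With AP21967, 6 of the 11 were called higher and 0 lower, where 4.35% and 4.82% of all probe sets were. TAT and PGR were not called.

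In cells with AP21967, R5020 also raised AKR1C3 and lowered 1 STS probe set. AKR1C3 rose by 0.66 ± 0.12 (adjusted p = 0.0108, limma), with 5.65 on R5020 against 5.21 on vehicle in iKR and 6.09 against 5.21 in iWT. These levels remained more than 5 log2 units under iEV and near the low end of the arrays. The single-array differences were 0.44 in iKR and 0.88 in iWT. Leaving out an array of 1 line's pair only returns the difference of the other line, so it does not test the call. Median centring gave 0.64 and cyclic loess 0.61, both called. STS 203767_s_at fell by 0.60 ± 0.10 on the log2 scale (adjusted p = 0.00909), with single-array differences of -0.73 in iKR and -0.46 in iWT. The other 3 STS sets were not called, with -0.03 for 203768_s_at, -0.24 for 203769_s_at and 0.02 for 203770_s_at (adjusted p = 0.885, 0.127 and 0.907).

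HSD17B1 showed a difference between R5020 and vehicle in iKR that was not seen in iWT. With AP21967 the values were 10.46 on R5020 against 9.53 on vehicle in iKR, and 9.19 against 9.07 in iWT, which is 0.93 and 0.12. Without AP21967 the differences were -0.07 in iKR and -0.15 in iWT. The shared response was not called (0.53 ± 0.16, adjusted p = 0.0751). Matched to the vehicle arrays with AP21967, the responses of the lines differed by 0.81. A further fit to the 10 arrays, chosen after these values were seen, had a separate R5020 effect for each line in the presence of AP21967. It sets the gap between iKR and iWT with AP21967 and R5020 against their mean gap under the other treatments. This contrast was 0.86 ± 0.16 (adjusted p = 0.0377, limma). That call was lost in 6 of 10 alternatives (adjusted p up to 0.108), with values of 0.78 to 0.93. None of the alternatives left out an array with AP21967 and R5020, and each line's response rests on 1 such array. HSD17B1 was the only enzyme probe set of 16 called in this fit, where 1.93% of all probe sets were called. HSD11B2 was not called (0.36 ± 0.15, adjusted p = 0.253, limma), and its vehicle-matched responses with AP21967 differed by 0.16.

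**Figure D4:**
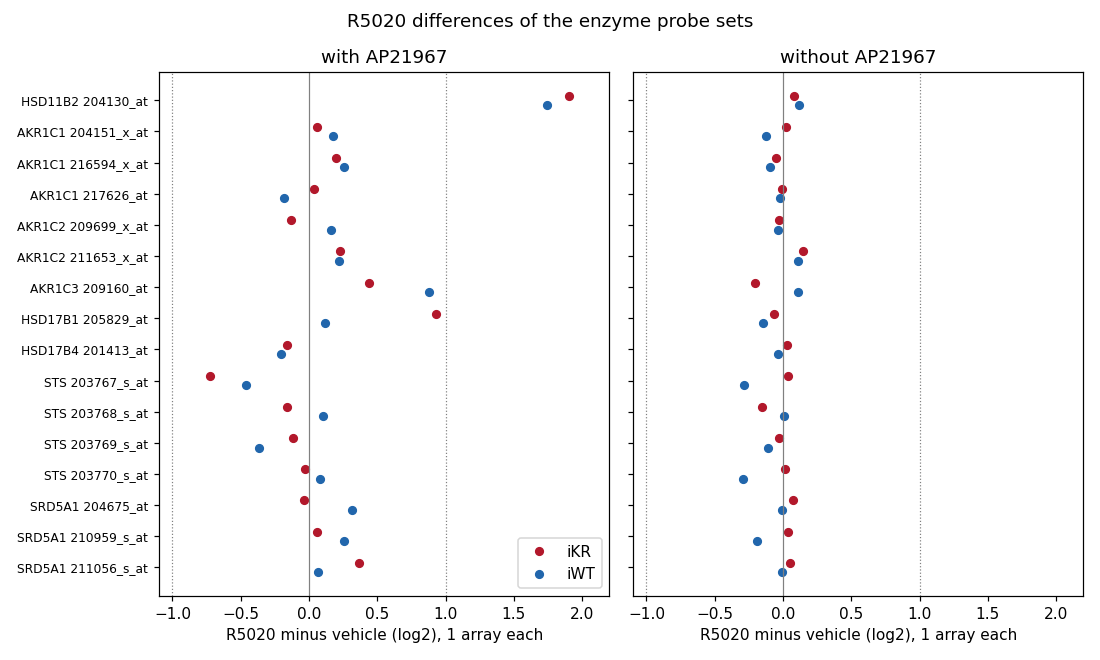
Difference between the R5020 and the vehicle array (log2) for each enzyme probe set, in iKR (red) and iWT (blue), with AP21967 on the left and without it on the right; dotted lines mark 2.0 fold. With AP21967, HSD11B2 is at 1.90 and 1.74 and HSD17B1 at 0.93 and 0.12, and without AP21967 the points lie between -0.29 and 0.15.

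In all, R5020 with AP21967 raised 2 and lowered 1 of the 16 enzyme probe sets, where 4.35% of all probe sets rose and 4.82% fell. The median over the 16 was 0.13, beside 0.02 over all. Past 2.0 fold, 1 of 16 (HSD11B2) was found in each line, where 1.14% of all probe sets were in iKR and 0.464% in iWT. The inducer-dependent response was called for HSD11B2 only, where 1.06% of probe sets were called higher and 0.419% lower. Without AP21967, 0 of the 16 were called (0 at an unadjusted p under 0.05), where 0.0045% of all probe sets were, 988 of them being under an unadjusted p of 0.05. AP21967 without R5020 gave 0 calls among the enzymes and 0.0% over the array, with 2 enzyme sets and 1145 probe sets in all under an unadjusted p of 0.05 in limma.

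Other genes of steroid synthesis and conversion were examined from a list of 50, of which 41 were measured by 57 probe sets. In iKR 2 of the 57 were higher and 4 lower than in iEV, in iWT 3 were higher and 9 lower, and between iKR and iWT 6 were higher and 1 lower. Over the array the shares called higher and lower were 8.47% and 7.82% for iKR, 7.14% and 7.73% for iWT, and 3.51% and 2.63% between iKR and iWT. The list's median differences were -0.04, -0.03 and 0.00. SULT1E1, the estrogen sulfotransferase, which acts opposite to STS, was lower in both lines (-1.76 in iKR and -1.48 in iWT), with 4.69 to 5.13 in iKR and 5.14 to 5.32 in iWT, against 6.54 and 6.66 in iEV. The receptor-line values lie under the 10th percentile of each array (5.47 to 5.55), at the dim end. HSD17B6, which oxidizes androgen metabolites, was also lower in both (-0.83 and -0.97), and HSD17B11, a lipid droplet dehydrogenase, was higher in both (0.96 and 0.61) and in iKR over iWT (0.34). SULT1E1 was lower in iKR than in iWT (-0.28).

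CYP1A1 and CYP1B1, which hydroxylate estrogens, differed between the receptor lines. CYP1A1 was at 10.25 to 11.76 in iKR and 9.07 to 9.96 in iWT, against 9.35 and 9.38 in iEV, with a difference from iEV of 2.09 in iKR and 0.61 in iWT and of 1.49 between iKR and iWT, each called. CYP1B1 (brightest probe set 202437_s_at) was lower than iEV in iWT (-1.02, adjusted p = 0.0237) and not called in iKR (-0.18, adjusted p = 0.733), and was 0.84 higher in iKR than in iWT (adjusted p = 0.0321). With AP21967, R5020 gave 2 of the 57 higher and 4 lower, where 4.35% and 4.82% of all probe sets were. CYP1A1 fell by 1.20 on the log2 scale and CYP1B1 202437_s_at by 1.11, while HSD17B2, which oxidizes estradiol, rose by 0.89 and AKR1D1, a bile acid and steroid reductase of the liver, by 0.54 from a dim signal. The other 3 CYP1B1 sets gave -0.25 to -0.63 and were not called. The inducer-dependent response was called for CYP1A1 (-1.22) and HSD17B11 (-0.71). In the fit with separate R5020 effects, the contrast of iKR with iWT was called higher for 3 of the 57 and lower for 3. Over the array 1.93% of all probe sets were called in either direction. This contrast also uses the arrays without AP21967, so it is not the difference of the vehicle-matched responses. The lower ones were all of CYP1B1 (-1.34, -0.93 and -0.67). With AP21967, CYP1B1 202437_s_at had 9.88 on R5020 against 11.74 on vehicle in iKR, and 10.05 against 10.41 in iWT. The higher ones were both sets of NSDHL, an enzyme of cholesterol synthesis (0.61 and 0.64), and HSD17B2 (0.62, adjusted p = 0.0428).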

How the data were processed

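RNA of 10 conditions was hybridized to 1 Affymetrix U133A 2.0 array each. The deposited log2 values were made by the authors from the scanned arrays in R with the affy package by Robust Multi-array Average, which corrects background, normalizes quantiles over arrays and summarizes probes. The methods give 1 nM AP21967 and 10 nM R5020, whereas the labels' notation reads literally as 10 and 100 nM. The methods also give 1 day of serum starvation, where the labels give 2, and another RNA extraction kit.

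All 10 value columns were used. After 62 control probe sets were left out, 22215 were tested, of which 19064 are paired with 1 gene, 1043 with several and 2108 with none in the platform annotation. Groups came from the sample labels. With limma 3.58.1 (R 4.3.3), line and AP21967 differences came from 10 arrays (6 parameters, 4 residual and 5.92 prior degrees of freedom), R5020 responses from 8 arrays (6 parameters, 2 and 6.78) and separate R5020 responses from 10 arrays (7 parameters, 3 and 5.82). Adjusted p values under 0.05 over all probe sets were called. The fits were tested on simulated data. Single-array differences were counted past 2.0 fold, as in the study's methods. Tables were made in Python 3.11.15.

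The members, lists and tests were chosen with earlier results of these data known. All members are accounted for, with every array's value for probe sets past 2.0 fold in any pair of arrays and for the brightest of each other member. Of the wider lists the 4 genes with the largest called differences per comparison were named, others only where the text describes them. Likeness was ranked by Pearson r among genes whose range was at least 0.5 times the member's. Alternatives were a filter at log2 6, 1 probe set per gene, median centring, cyclic loess, a mean-variance trend, other sets of arrays, and leaving out each array. Arrays have no read depth, and their number limits the precision. No replicate numbers pair the arrays, since each condition has 1, and the R5020 fit compares arrays within each line and inducer state.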

Additional observations from a re-analysis of the deposited data

Results flagged for a closer look

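In a fit chosen after the values were seen, the R5020 response of HSD17B1 differed between the receptor lines. With AP21967, the difference between R5020 and vehicle was 0.93 (log2) in iKR and 0.12 in iWT, which differ by 0.81. The fit sets the gap between iKR and iWT with AP21967 and R5020 against their mean gap under the other treatments. That contrast was 0.86 ± 0.16 (SE, adjusted p = 0.0377, limma, 10 arrays). Across 10 alternatives the value was 0.78 to 0.93, and the call was lost in 6 of them (adjusted p 0.00852 to 0.108). These were cyclic loess and leaving out the iKR array with AP21967 and vehicle, the iKR array with R5020 alone, or any of the 3 iWT arrays other than the one with AP21967 and R5020. None of the 10 alternatives left out an array with AP21967 and R5020. Each line's response rests on 1 such array, so the range of values does not test it.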

How the results depend on the processing

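Of 517 comparisons of an enzyme value with an alternative, 453 kept the direction and the side of the threshold, 52 lost the call, 12 gained one and 0 changed sign. Some alternatives leave the value itself unchanged, so that its sign could not change. These are the filter, 1 probe set per gene, a mean-variance trend and leaving out an array that the comparison does not use. AKR1C3, HSD11B2, AKR1C1 204151_x_at and 216594_x_at and AKR1C2 211653_x_at kept their line calls in every alternative. Over the array, iKR minus iEV gave 3619 calls (2343 with 1 probe set per gene, which tests fewer, and 1565 to 4645 leaving out 1 array). The same settings gave 3304, 2158 and 1411 to 4209 for iWT minus iEV, and 2037, 1270 and 1594 to 3411 for R5020 with AP21967. For iKR minus iWT, 1364 were called, 541 in the 6 arrays without R5020 and 634 to 1563 leaving out 1 array. R5020 without AP21967 gave 1 call, 0 after cyclic loess or in 10 arrays, 2 with a trend and 1 to 6 leaving out 1 array. The inducer-dependent response gave 329, 690 in 10 arrays and 124 to 2176 leaving out 1 array, and the separate response 428 and 99 to 492. The causes of these shifts were not tested, apart from the fewer probe sets or arrays. Each condition is 1 array of 1 clone, and AKR1C3 in the receptor lines lies at the dim end of the arrays, where a fold is less certain.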

Other observations

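AKR1C enzymes and NQO1 are known targets of NFE2L2, the transcription factor of the antioxidant response. Of 24 such genes listed, 21 were measured by 31 probe sets, of which 4 were higher and 7 lower in iKR than in iEV, 4 higher and 11 lower in iWT than in iEV, and 9 higher and 1 lower in iKR than in iWT. Over the array 8.47% and 7.82%, 7.14% and 7.73%, and 3.51% and 2.63% of probe sets were called higher and lower in these comparisons. Median differences were 0.02, -0.10 and 0.10. NQO1, a quinone reductase, was at 12.37 to 12.58 (210519_s_at) in iKR and 12.14 to 12.28 in iWT, against 12.92 and 13.00 in iEV. UGDH, which makes the sugar used in glucuronidation, was lower by limma in both lines (-0.60 in iKR and -0.65 in iWT). GSR, glutathione reductase, was lower in both too (-0.53 and -0.28), and FTL, the ferritin light chain, was higher (0.32 and 0.22). GCLM, a subunit of the enzyme that makes glutathione's precursor, was lower in iWT (-0.77) and not called in iKR (-0.25, adjusted p = 0.0949), with 0.52 for iKR minus iWT (called). The cystine transporter SLC7A11 (209921_at) differed by 0.04 in iKR (not called) and -0.95 in iWT, and by 0.99 between iKR and iWT, whereas its brightest set, 207528_s_at, was called in none of these (-0.07, -0.20 and 0.13). TKT, a transketolase, was 0.38 higher in iKR than in iWT (208700_s_at). With AP21967, R5020 raised 2 of the 31 sets, both of GCLC (0.34 each), and lowered 4, of TXNRD1 (-0.59), KEAP1 (-0.46), TXN (-0.45) and ABCC2 (-0.42), where 4.35% and 4.82% of all probe sets rose and fell. In the fit with separate R5020 effects, 1 was called, NFE2L2 itself (201146_at), with a contrast of iKR with iWT of -0.55 (log2). The part of any of these in the AKR1C levels was not tested.

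Over the 10 arrays, the genes whose pattern was most like that of AKR1C3 were HPSE2 (Pearson r 0.996), APOD (0.974) and IFI27 (0.965), of 15 with a comparable range. HPSE2 was at 6.60 to 6.95 in iKR and 6.62 to 6.80 in iWT, against 10.98 and 11.03 in iEV. For HSD11B2 they were RGS2 (0.989), SMCO4 (0.97) and ST3GAL1 (0.966), of 533. RGS2 had 8.09 in iKR and 8.02 in iWT with AP21967 and R5020, 6.39 to 6.62 on the other 6 receptor-line arrays, and 7.12 and 7.13 in iEV. The points share lines and treatments, so these values of r are descriptions.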
